A study of Sus scrofa with 6 samples.

Results

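The miRNAs described here are those that carry the pig (ssc) numbers miR-4331 to miR-4339 and miR-7134 to miR-7144, a set of miRNAs named first in the pig. They were selected by number, with any arm suffix, and make up 30 of the 322 pig mature miRNAs on the array. This choice was made with earlier results of these data known. The 30 miRNAs come from 18 hairpins, and both arms are on the array for 12 of these. The lower block gave 8 miRNAs (miR-4331, miR-4332, both arms of miR-4334, miR-4335, miR-4337, miR-4338 and miR-4339), and the upper block gave 22, both arms of each number. They are held to lack clear counterparts in other mammals, which the array sequences bear on for miR-4334-3p, as described with the sequences.

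miRNA levels were measured in the left atrium (LA) of 3 paced and 3 sham pigs, with 1 single-colour array per animal. Paced animals received a beta blocker and then burst pacing of the right atrium through a catheter, which gave short self-terminating episodes of atrial fibrillation (AF), while sham animals had the catheter procedure without burst pacing. The LA, the chamber that was not paced, was taken on the following day. The methods of the study describe Large White pigs that were a few months old, whereas the labels call the animals neonatal piglets. The comparison asks which miRNAs differ in the LA after brief induced AF. The methods do not state whether sham animals also received the beta blocker. If they did not, drug and pacing cannot be told apart. RNA was extracted from whole tissue, so fewer cells of a type and less RNA per cell cannot be told apart. The LA samples carried the muscle miRNAs miR-1, miR-133a-3p, miR-133b and miR-499-5p well above background on all 6 arrays, and miR-208b on 5. The endothelial miR-126-3p, the smooth muscle miR-143-3p and miR-145-5p, the erythrocyte miR-451 and miR-128, listed for neurons, were also so on all 6. The erythrocyte miR-486 was so on 5. miR-126-5p (endothelium), miR-144 (erythrocytes), miR-142-3p and miR-142-5p (leukocytes), miR-122 (liver), miR-205 (epithelium), miR-9 and miR-124a (neurons) were so on none. Of the markers listed beforehand, only 1 of 5 for epithelium and 2 of 3 for leukocytes were on the array. Replicates are different animals, so the spread between them includes both animal and array.

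A miRNA is cut from a hairpin transcript as a short duplex, and 1 strand of it is loaded into an Argonaute protein, where it guides the silencing of mRNAs. The seed, bases 2 to 8 from the 5′ end, sets most of the pairing with a target, so that miRNAs with the same seed are grouped as a family. The arm of the hairpin that a mature miRNA comes from is given by the suffix 5p or 3p. miRNAs restricted to a few species are often young in evolution and expressed at low levels, and for most of the 30 miRNAs no function in the heart is established.

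The sequences of the 8 miRNAs that had signal on at least 1 array or an unadjusted p of 0.05 or below are shown first, because their seeds and base composition are referred to beside their values. They were copied from the deposited array files and are written 5′ to 3′, with the seed in capitals.
miR-4331: uGUGGCUGugguguaggccagc
miR-4332: cACGGCCGccgccgggcgcc
miR-4334-5p: cCCUGGAGugacgggggug
miR-4334-3p: uCCCUGUCcuccaggagcuc
miR-7134-5p: aUGUCCGCggguucccuaucc
miR-7134-3p: aUGCGGAAccugcggauacgg
miR-7138-5p: uCCCAGCAaguguccauccaucu
miR-7140-3p: aUGAUGCCccuuagaguugagc
The 30 miRNAs were 19 to 24 bases long, with a median of 22 as for the whole array. Their median GC content was 59.1%, against 47.6% over all 322 miRNAs. The GC-richest sequence of the array was that of miR-4332 at 95%, which is G or C at 19 of 20 positions. Between them the 30 miRNAs had 29 different seeds.

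The brightest of the 30 miRNAs, miR-4334-3p, was not distinct in sequence from a conserved miRNA. All 20 of its bases, the seed included, stand at the 5′ end of the array's 2 sequences for miR-339, a miRNA that is conserved among mammals. The 3 sequences are set side by side to show this, with the shared bases in capitals.
miR-4334-3p: UCCCUGUCCUCCAGGAGCUC
miR-339: UCCCUGUCCUCCAGGAGCUCa
miR-339-5p: UCCCUGUCCUCCAGGAGCUCac
The miR-339 sequences only add 1 or 2 bases at the 3′ end. Signal from miR-4334-3p and from miR-339 therefore cannot be told apart with these sequences, and values given below for miR-4334-3p are those of its probe.

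The other 29 miRNAs shared at most 12 bases in a row with any miRNA outside the set. The longest such run joined miR-4339 to miR-486, a miRNA abundant in red blood cells and muscle, and covered bases 4 to 15 of miR-4339 and bases 8 to 19 of miR-486, so that it took in only the last base of the seed of miR-486. A run of 11 bases joined miR-7135-5p to miR-148a-5p. These pairs are shown because they are the closest matches after miR-339, again with the shared bases in capitals.
miR-4339: gcuCUGAGCUGCCCCuccucgucc
miR-486: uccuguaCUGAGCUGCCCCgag
miR-7135-5p: ucUCUGAGACACUgacugugg
miR-148a-5p: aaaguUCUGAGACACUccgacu
The seed CUCUGAG occurred in 2 of the 30 miRNAs, miR-4339 and miR-7135-5p, and in no other miRNA on the array. Of the remaining miRNAs, miR-7137-3p shared bases 2 to 7 with miR-133a-5p and miR-138. Cross-hybridization between such probes was not tested.

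The longest run of complementary bases between the arms differed between hairpins. It was counted on the mature sequences in any alignment, without G-U pairs. Hairpin sequences were not at hand, so a run need not be the pairing within the hairpin. In miR-7137 and miR-7141 the arms had 18 complementary bases in a row, and in miR-7140 they had 10. In the other 9 hairpins the longest perfect run was 5 to 9 bases.

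In the pig RefSeq annotation (Sscrofa11.1), 16 of the 18 hairpins had a gene entry, miR-4332 and miR-4339 being the exceptions. Of these, 12 lay within the span of another gene. The hairpin of miR-7134 lay within TNRC6B, which encodes a protein of the miRNA silencing complex, and that of miR-7140 within REM1, which encodes a small GTPase. Others lay within DNPEP, a peptidase gene (miR-4334), EXOC4, an exocyst subunit gene (miR-4337), ABCC1, a transporter gene (miR-7135), FGFR4, a growth factor receptor gene (miR-7138), and E2F7, a transcription factor gene (miR-7139). The table gives neither strand nor exons for these, and the array holds no mRNA, so the genes around the hairpins were not measured. No other miRNA gene lay within 10 kb of any of the 16, so none belongs to a close cluster of miRNA genes.

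Most of the 30 miRNAs gave no signal in the LA that stood out from empty spots. Each array held 786 empty spots, and a miRNA counted as well above background there if its signal, the median over 9 repeat spots, was over 3 SD higher than the empty-spot median, the SD being that between empty spots. By this rule miR-4334-3p and miR-7134-3p were well above background on all 6 arrays, 5 miRNAs were so on 4 or 5 arrays, and 23 were so on none. Over the whole array the counts were 104 on all 6, 75 on some and 143 on none. The empty-spot median itself was 64.7 to 214 scanner units on the sham arrays and 242.5 to 399 on the paced arrays, so that each paced array lay above each sham array. Paced replicate 1, the array with the highest empty-spot median, had only miR-4334-3p and miR-7134-3p above the threshold. Whether background or lower signal accounts for this was not tested.

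In units of the empty-spot SD, the probe of miR-4334-3p stood above the empty spots by 27.5, 132 and 53.2 SD in sham animals and by 12.7, 40.4 and 27.1 SD in paced animals, listed as replicates 1, 2 and 3. That of miR-7134-3p stood 19.5, 80.4 and 40.8 SD above them in the sham animals and 10.7, 23.0 and 17.6 SD in the paced animals. Both were far above the threshold on every array, and both were lowest on paced replicate 1, the array with the highest background. Its partner arm miR-7134-5p reached 6.995, 37.5 and 16.4 SD in sham animals and 2.54, 10.2 and 7.27 SD in paced animals, and so missed the threshold on paced replicate 1 alone. The probe of miR-4331 lay at 3.42, 8.97 and 4.37 SD in sham animals and at -0.0978, 5.30 and 5.08 SD in paced animals. Its signal on paced replicate 1 thus lay within the spread of the empty spots. The probes of miR-4332, miR-4334-5p and miR-7138-5p were above the threshold on replicates 2 and 3 of both groups and on replicate 1 of neither.

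The other 22 miRNAs ranged from -1.97 to 2.45 SD, and the highest of these values was that of miR-7139-3p in sham replicate 2. miR-7140-3p, named below for its difference, ranged from -0.45 SD in paced replicate 1 to 2.49 SD in paced replicate 2. Both arms of miR-7135, miR-7136, miR-7137, miR-7139, miR-7140, miR-7141, miR-7142, miR-7143 and miR-7144 were below the threshold on all 6 arrays, as were miR-4335, miR-4337, miR-4338, miR-4339 and miR-7138-3p. The signal of many lay under that of the empty spots around them, in 21, 10 and 16 of the 30 miRNAs in the sham animals and in 24, 12 and 21 in the paced animals. Over all 322 miRNAs these counts were 140, 66 and 90 in the sham animals and 182, 47 and 125 in the paced animals. A miRNA whose probe lies under its empty spots was not detectable at the sensitivity of that array. Measured against the 15 nearest empty spots in place of all, miR-4332 and miR-7134-5p were also above the threshold on all 6 arrays, miR-7139-3p was so on 1 sham array, and 22 miRNAs were so on none.

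**Figure D1:**
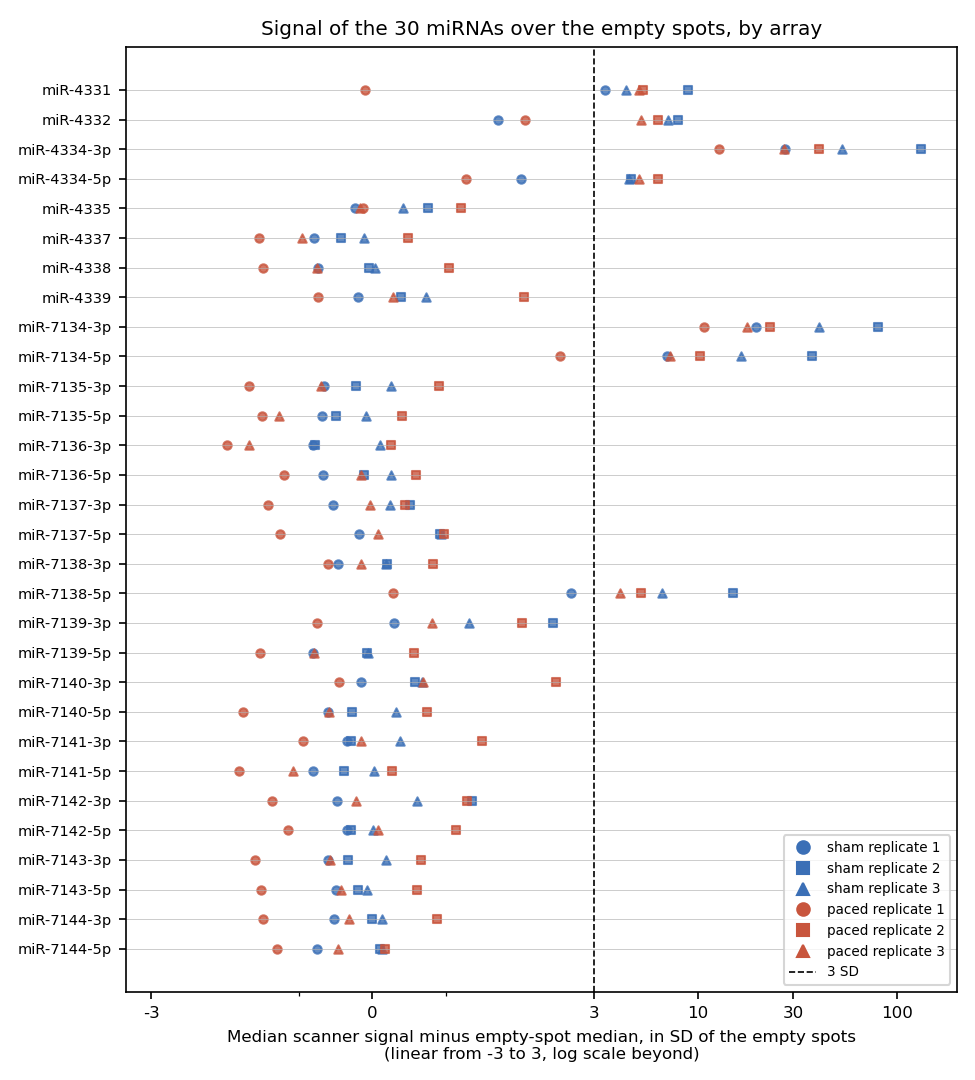
Median scanner signal of each of the 30 miRNAs above the empty-spot median, in SD of the empty spots of the same array (x axis, linear from -3 to 3 and logarithmic beyond), with 1 mark per array and a dashed line at 3 SD. The miRNAs with marks far to the right on most arrays are miR-4334-3p, miR-7134-3p and miR-7134-5p, and 23 of the 30 miRNAs have all 6 marks left of the line.

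Between paced and sham animals, no miRNA of the set differed after adjustment for all 322 tests. Values were compared after background correction and quantile normalization as log2 signal, with limma and the method of Benjamini and Hochberg, and differences are paced minus sham. The count at an adjusted p of 0.05 or below was 0 of 30 (0% of all 322 miRNAs), and the adjusted p values ran from 0.134 to 0.998. At an unadjusted p of 0.05 or below, limma gave 3 of the 30 with higher values in paced animals (3.42% of all 322) and 0 with lower values (7.14% of all 322). The unpaired test named in the methods of the study, on the same values, also gave 3 of the 30 (12.1% of all 322) and, after adjustment, 0. Paced and sham values did not overlap in 6 of the 30 with paced higher (7.14% of all 322) and in 1 with paced lower (10.2% of all 322). With 3 animals against 3, an exact permutation test on 1 miRNA cannot give a p below 0.1.

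The probe of miR-4334-5p had log2 signals of 7.76, 7.41 and 7.59 in sham animals and 8.16, 8.01 and 8.18 in paced animals, listed as replicates 1, 2 and 3. All paced animals lay above all sham animals. With means of 7.59 ± 0.18 (SD, n = 3) and 8.11 ± 0.09 (SD, n = 3), limma gave a difference of 0.53 (SE 0.11, adjusted p = 0.134). This was the largest difference of the 30, and the probe was not well above background on replicate 1 of either group.

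The probe of miR-4332 had log2 signals of 7.71, 7.68 and 7.93 in sham animals and 8.55, 7.96 and 8.23 in paced animals. The groups did not overlap, but sham replicate 3 and paced replicate 2 lay close together. In limma they differed by 0.47 (SE 0.16, adjusted p = 0.357). The highest value was that of paced replicate 1, where the probe was not well above background, and the difference was 0.35 without that animal. This is the miRNA with the highest GC content on the array.

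The probe of miR-7140-3p had log2 signals of 6.97, 6.90 and 6.92 in sham animals and 7.43, 7.17 and 7.22 in paced animals. The sham animals were close together, and all paced animals were above them. In limma they differed by 0.34 (SE 0.09, adjusted p = 0.172). As no array had the probe well above background, its level in each group is only bounded, and the difference is one between signals near those of empty spots. Its partner arm miR-7140-5p differed by 0.04 in limma (SE 0.06, adjusted p = 0.838).

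The 2 miRNAs with signal on every array did not differ between the groups beyond the spread of the animals. The probe of miR-4334-3p had log2 signals of 10.15, 10.32 and 10.02 in sham animals and 10.14, 10.24 and 10.20 in paced animals. The paced values lay within the range of the sham values, and the difference was 0.03 with a 95% interval from -0.19 to 0.25 (limma, adjusted p = 0.917). The probes that share its sequence, miR-339 and miR-339-5p, had differences of -0.12 (SE 0.14, limma, adjusted p = 0.792) and -0.02 (SE 0.10, limma, adjusted p = 0.963). For all 3 probes sham replicate 2 was the highest of the sham animals, but the other animals were not ordered alike. The lowest sham animal was replicate 1 for miR-339 and replicate 3 for the other 2 probes. The highest paced animal was replicate 1 for miR-339 and replicate 2 for the other 2 probes.

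**Figure D2:**
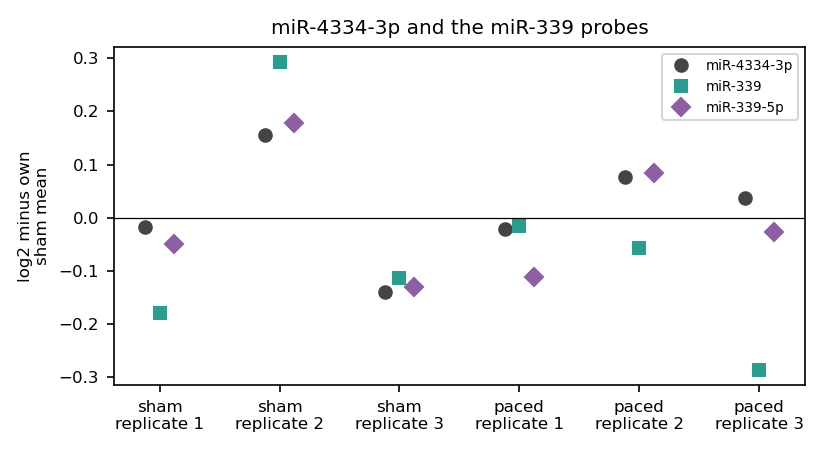
Normalized log2 signal of the probes of miR-4334-3p, miR-339 and miR-339-5p in each animal, each minus its own mean over the 3 sham animals. All 3 probes are highest in sham replicate 2 among the sham animals, and marks of paced and sham animals overlap. Among the paced animals miR-339 is highest in replicate 1 and the other 2 probes in replicate 2.

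The probe of miR-7134-3p had log2 signals of 9.73, 9.79 and 9.74 in sham animals and 9.94, 9.34 and 9.44 in paced animals. Paced replicates 2 and 3 were below all sham animals, and paced replicate 1 was above all of them. The SD was 0.03 in sham and 0.32 in paced animals, with a difference of -0.18 by limma (SE 0.15, adjusted p = 0.737). Without paced replicate 1 it was -0.35 (limma, adjusted p = 0.0546, the lowest of all settings, which reached 0.979). It was -0.065 without paced replicate 2 and -0.11 without paced replicate 3, so that its size depended on each of the paced animals.

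Its partner arm miR-7134-5p had log2 signals of 8.70, 8.82 and 8.61 in sham animals and 8.65, 8.50 and 8.44 in paced animals. Only paced replicate 1 lay within the sham range, and limma gave -0.18 (SE 0.09, adjusted p = 0.492). Without paced replicate 1 it was -0.25 (limma, adjusted p = 0.144, again the lowest of a range up to 0.979), and it was -0.11 without sham replicate 2 and -0.029 with scaling to the detected probes. Both arms of this hairpin thus had a negative difference, and neither passed the test.

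Of the remaining detected miRNAs, miR-7138-5p had log2 signals of 7.94, 8.11 and 7.88 in sham animals and 7.80, 7.72 and 7.94 in paced animals, and their difference was -0.16 by limma (SE 0.09, adjusted p = 0.574). It was -0.086 without sham replicate 2, and over all settings it ran from -0.62 with subtraction of the background to 0.27 with scaling to the detected probes. The probe of miR-4331 had log2 signals of 8.07, 7.75 and 7.59 in sham animals and 7.52, 7.86 and 8.11 in paced animals. The groups overlapped in both, and for miR-4331 they spanned nearly the same range. The difference of miR-4331 was 0.02 with a 95% interval from -0.41 to 0.45 (limma, adjusted p = 0.968).

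**Figure D3:**
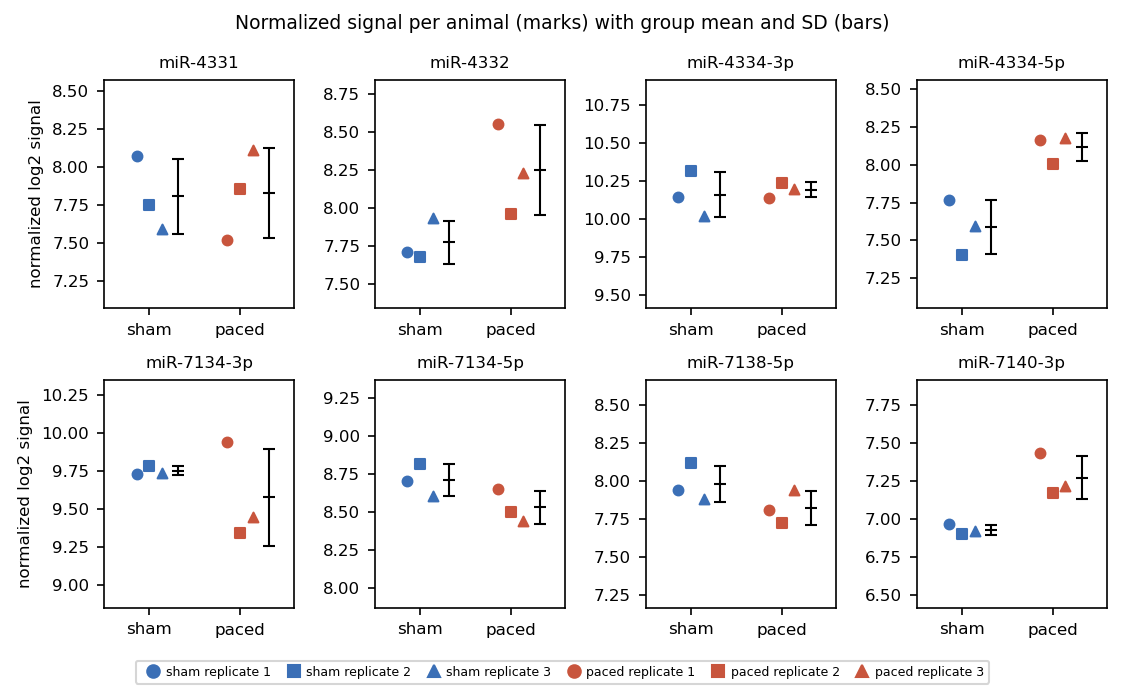
Normalized log2 signal of 8 miRNAs in each animal (marks) with the mean and SD of each group (bars, n = 3), on axes of equal length. Paced animals lie above sham animals for miR-4332, miR-4334-5p and miR-7140-3p, and the groups overlap in the other 5.

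The other 22 miRNAs, all below the detection threshold on every array, had differences from -0.10 (miR-7142-3p) to 0.21 (miR-7138-3p), with adjusted p values from 0.470 to 0.998 in limma. For miR-4339 it was 0.11 (SE 0.08, limma, adjusted p = 0.658), and for miR-486, with which it shares 12 bases, it was -0.70 (SE 0.16, limma, adjusted p = 0.134). Paced values were above all sham values for miR-4337, miR-7143-5p and miR-7144-3p. Values of miR-7144-3p and miR-7142-3p are given as examples chosen after they were seen. For miR-7144-3p the log2 signals were 6.76, 6.62 and 6.67 in sham animals and 6.84, 6.79 and 6.92 in paced animals. For miR-7142-3p they were 6.96, 7.04 and 6.93 in sham animals and 6.85, 6.93 and 6.86 in paced animals, the only case of paced values below all sham values. Each of these values is a mean over 9 repeat spots. Before normalization, the median SD between single repeat spots of an array was 0.22 over the 23 miRNAs without signal. After normalization, the median SD between animals, taken on the means over repeat spots, was 0.08. For the 2 miRNAs with signal on every array these were 0.12 between repeat spots and 0.17 between animals. A mean over 9 spots varies less than a single spot, so the 2 kinds of SD cannot be ranked against each other.

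Over the whole set, the difference was above 0 in 25 of the 30 miRNAs, against 165 of all 322, and its median was 0.08 against 0.003. All 8 miRNAs of the lower block had positive differences, with a median of 0.13, and the median was 0.06 in the 22 of the upper block. Among miRNAs without signal on any array, the median was 0.09 in the 23 of the set and 0.04 in the other 120. The difference was above 0 in 21 of these 23 and in 79 of these 120. It was above 0 in 41 of the 104 miRNAs with signal on all 6 arrays. With normexp against the nearest empty spots, 17 of the 30 differences were positive and the median was 0.024. Spearman's rho between GC content and the difference was 0.24 across the 30 miRNAs and -0.04 across all 322, as a description over probes that share arrays. Among miRNAs without signal on any array, rho was 0.21 across the 23 of the set and 0.04 across all 143. The empty-spot signal, which was higher on all paced arrays, moved with the groups as well. With it as a covariate the median difference of the 30 was 0.005, 16 were positive and 0 had an unadjusted p of 0.05 or below (limma, 22 of all 322), but 6 arrays leave little to separate group from background.

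**Figure D4:**
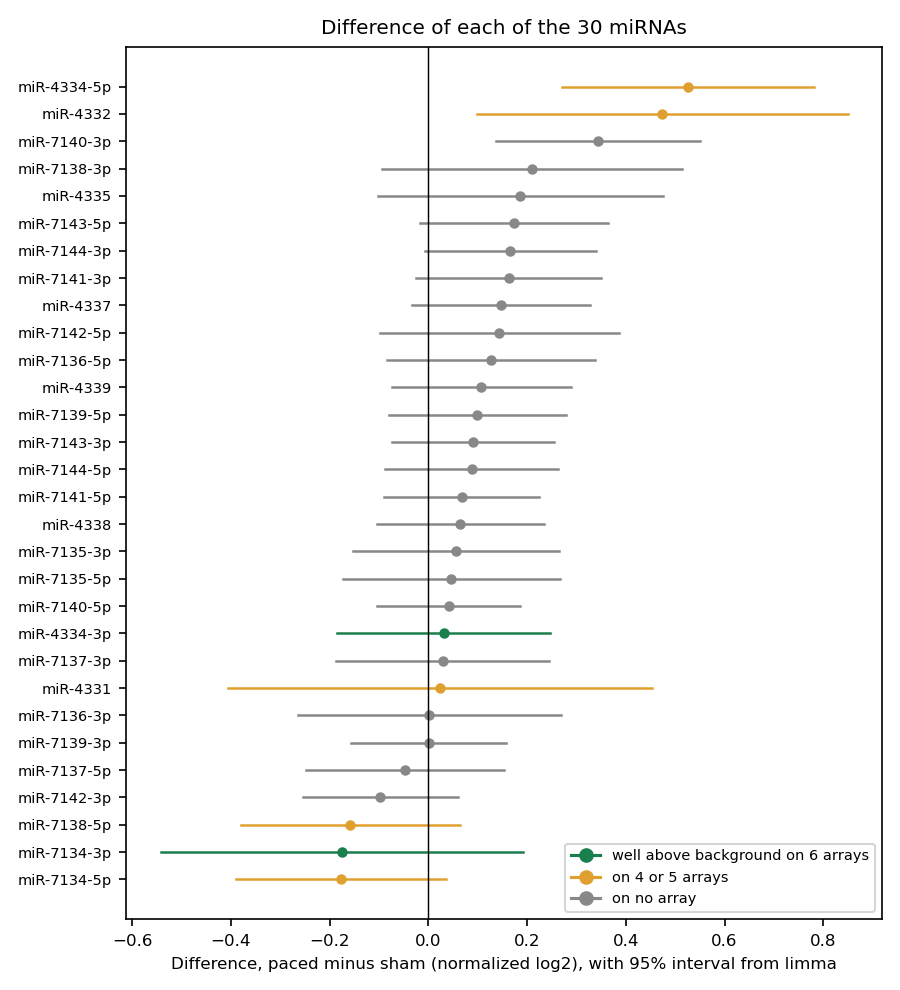
Difference between paced and sham animals (normalized log2) for each of the 30 miRNAs, with the 95% interval from limma, ordered by size and coloured by the number of arrays on which the probe was well above background. The 2 miRNAs with signal on all 6 arrays have intervals that include 0. Of the 25 positive differences, 21 belong to probes without signal, which make up 23 of the 30.

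The processed values that the authors deposited were taken as log2(value + 1), while the scanner values carried an offset of 50 before log2. Sizes of differences are therefore not on one scale, above all for dim probes. With an offset of 10 in place of 50, the difference of miR-7140-3p from the scanner values was 0.50 in place of 0.34. On the processed values, the difference was larger in size for 26 of the 30 miRNAs and for 271 of all 322. Among the 7 miRNAs with signal on some array it was larger for 4. On log2(value + 1), limma gave 8 of the 30 with an unadjusted p of 0.05 or below and higher values in paced animals (6.83% of all 322), 0 with lower values (4.97% of all 322), and 0 after adjustment. The 8 were miR-4332, miR-4334-5p, miR-4335, miR-4339, miR-7140-3p, miR-7141-3p, miR-7142-5p and miR-7144-3p, of which the first 2 had signal above the threshold on any array. These names, and the examples that follow, were chosen after the values were seen.

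The processed intensity of miR-7141-3p, for example, was 9.05, 4.43 and 5.26 in sham animals and 22.9, 20.6 and 14.9 in paced animals. The groups did not overlap, and the difference on log2(value + 1) was 1.53 (SE 0.30, limma, adjusted p = 0.178), against 0.16 (SE 0.08, limma, adjusted p = 0.484) from the scanner values. For miR-4335 the processed intensity was 13.5, 6.91 and 6.15 in sham animals and 51.7, 17.0 and 16.9 in paced animals. Paced replicate 1 stood apart, and the difference on log2(value + 1) was 1.46 (SE 0.53, limma, adjusted p = 0.332), against 0.19 (SE 0.12, limma, adjusted p = 0.621). For miR-4334-3p, with signal on every array, the processed intensity averaged 1066 ± 136 over sham animals (SD, n = 3) and 1046 ± 94.6 over paced ones (SD, n = 3), which is -0.02 on log2(value + 1). The median difference of the 30 was 0.40 on the processed values and -0.04 over all 322.

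The number of miRNAs past the test depended on the scaling of the arrays. When the median of the probes with signal on all 6 arrays was set equal, in place of quantile normalization, 26 of the 30 had an adjusted p of 0.05 or below in limma, all with higher values in paced animals (53.1% of all 322 in either direction). Under this setting limma gave all 8 miRNAs with individual values the same SE, 0.19. The spread of a single miRNA between animals thus did not enter its p, and the count of 26 rests on a spread pooled over miRNAs. The median of all 322 miRNAs was then 0.44 and that of the 30 was 0.64, so that the count over the array and the count over the 30 miRNAs moved together. The 4 that did not pass were miR-4334-3p, miR-7134-3p, miR-7134-5p and miR-7138-5p, which include both miRNAs with signal on all 6 arrays. The differences of miR-4332, miR-4334-5p and miR-7140-3p were above 0 and those of miR-7134-3p and miR-7134-5p below 0 under every setting in which they were tested. The unpaired test, the trend and robust prior, the replicate block and the filter on dim probes cannot change a difference. All settings use the same animals, so a constant sign is no independent support.

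**Figure D5:**
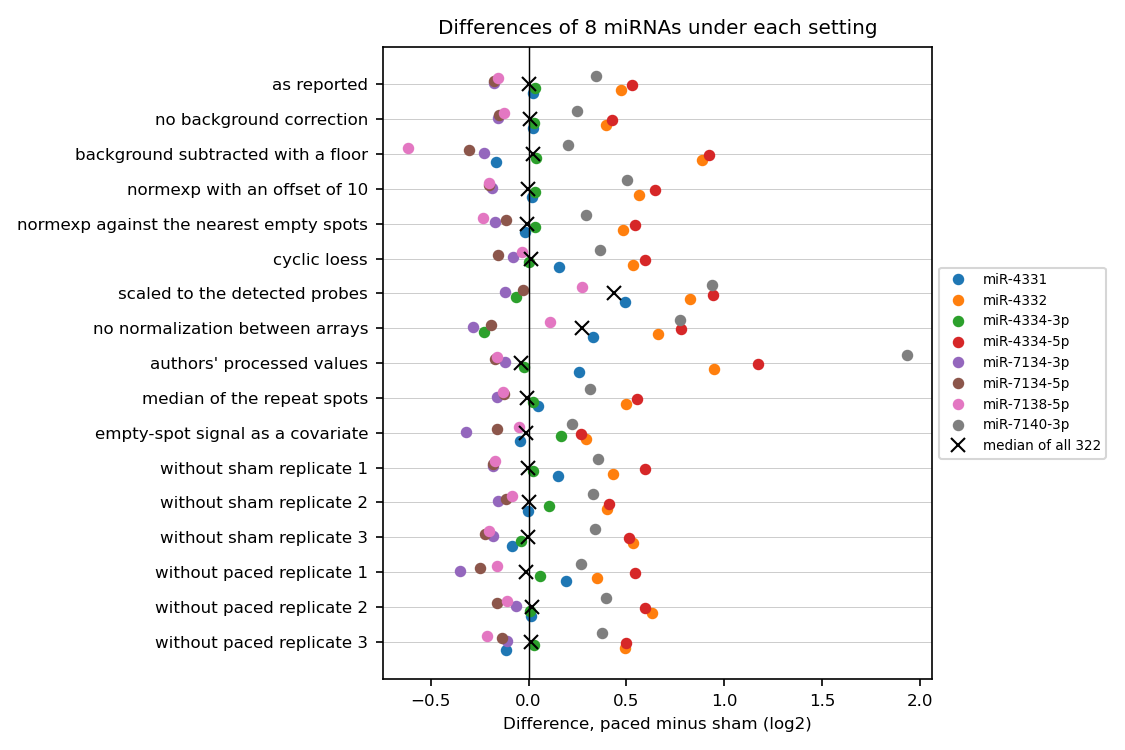
Difference between paced and sham animals (log2) of 8 miRNAs under each setting that changes the values, with the median of all 322 miRNAs as crosses. Scaling to the probes with signal, and no normalization between arrays, move the median of all miRNAs to 0.44 and 0.27, and the difference of miR-7140-3p is highest on the processed values, at 1.93.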

How the data were processed

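LA RNA of 3 sham and 3 paced pigs, grouped by the sample labels, was measured on 1-colour miRNA arrays, 1 per animal, with 9 repeat spots for each of 322 pig miRNAs. The authors deposited the median intensity of each spot as scanned, with background included, and 1 processed intensity per miRNA and array, whose background correction and normalization are not given in the sources used here. Scanner intensities were corrected with normexp (offset 50, over all spots), control spots were left out, and log2 values were quantile-normalized and averaged over repeat spots. The groups were then compared in limma (version 3.58.1, R 4.3.3) over all 322 miRNAs, with Benjamini-Hochberg adjustment. The steps were tested on simulated data, where recovery of changes was scored only for probes brighter than the median probe. The simulation therefore does not show how well changes of dim probes are recovered. Python 3.11.15 and matplotlib 3.10.9 drew the figures.

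The members and lists were chosen with earlier results of these data known. Members well above background on at least 1 array or with an unadjusted p of 0.05 or below were named with values per animal. Values of miR-4335, miR-7141-3p, miR-7142-3p and miR-7144-3p are further examples chosen after they were seen. The alternatives were other background corrections (none, subtraction with a floor of 32, an offset of 10, the 15 nearest empty spots), cyclic loess, scaling to detected probes, no normalization, the processed values, the median of repeat spots, a filter on dim probes, limma with a trend and robust prior, the unpaired test of the methods, the empty-spot signal as a covariate, the replicate number as a block, and each animal left out. Detection was also tried with 2 SD, the mean of repeat spots and the nearest empty spots. The number of arrays limits the precision. No slide or scan batch is named in the files.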

Additional observations from a re-analysis of the deposited data

How the results depend on the processing

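The number of the 30 miRNAs at an unadjusted p of 0.05 or below was 3 as reported, and the share over all 322 miRNAs in either direction, given in brackets, was 10.6%. It was 5 with normexp against the nearest empty spots (11.2%), 5 with a trend and robust prior in limma (12.4%), 8 on the authors' processed values (11.8%), 26 with scaling to the detected probes (56.2%), and 0 with the empty-spot signal as a covariate (6.83%). It was also 0 with a filter on dim probes, which left 4 of the 30 and 126 of all miRNAs in the test (3.97%). It ranged from 2 (5.9%, without sham replicate 2) to 5 with 1 animal left out, and was 5 without sham replicate 1 (9.01%) and 5, of which 2 were lower, without paced replicate 1 (20.8%). After adjustment the count was 26 with the scaling and 0 in limma under all other settings. With the scaling, and also without normalization between arrays, limma used an SE pooled over miRNAs in place of the spread of each miRNA. The median difference of the 30, 0.08 as reported, was 0.64 with the scaling, 0.47 without normalization between arrays, 0.40 on the processed values, 0.0053 with the covariate, 0.024 with the nearest empty spots, 0.028 with subtraction, 0.047 without background correction, 0.050 with the median of the repeat spots and 0.12 with an offset of 10. The number of miRNAs whose groups did not overlap, 7 as reported (17.4% of all 322), was 27 with the scaling (59% of all 322), 3 without normalization (5.28%) and 4 with the median of the repeat spots (14.6%). Against the nearest empty spots, 4 miRNAs in place of 2 were well above background on all arrays. The causes were not tested.

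The sign of the difference turned in 3 of the 8 miRNAs with individual values. For miR-4331 it was -0.17 with subtraction, -0.017 with the nearest empty spots, -0.044 with the covariate, and from -0.12 to 0.19 with 1 animal left out (-0.0052 without sham replicate 2, -0.08 without sham replicate 3 and -0.12 without paced replicate 3). For miR-4334-3p it was -0.063 with the scaling, -0.23 without normalization, -0.023 on the processed values and from -0.038 (without sham replicate 3) to 0.10 with 1 animal left out. For miR-7138-5p it was 0.27 with the scaling and 0.11 without normalization. The differences of these 3 were not past the adjusted threshold as reported.

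Animals with the same replicate number in both groups did not deviate together throughout, with correlations of 0.17, -0.04 and 0.13 for numbers 1, 2 and 3 over all 322 miRNAs, so the numbers were not taken as pairs. With the replicate number as a block the count at an unadjusted p of 0.05 or below was 3 (10.2% of all 322), the count after adjustment was 0 and the median difference was 0.08.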
